A study of Bos taurus with 8 samples.

Results

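The proteasome subunit genes are the rows of the deposited table whose symbol begins with PSMA, PSMB, PSMC, PSMD, PSME, PSMF or PSMG followed by a number. The rule used symbols alone and found 48 of the table's 28709 genes. They comprise 16 genes of the core particle, 20 of the regulatory cap, 3 immunoproteasome subunits and 9 activators, inhibitors and assembly chaperones. Sequencing covered the messenger RNA of BUTE cells, which are an immortalized bovine uterine epithelial line made from a single Holstein cow and labelled as wild type. Progesterone cultures received 10 µM of the steroid for 24 h, and control cultures received its vehicle DMSO for the same time. Both groups had first spent 24 h without serum and steroids in the presence of insulin-like growth factor 1, and both kept that factor, at 50 ng/ml and without serum, during treatment. Each group had 4 libraries, named here after the deposited columns as progesterone R1, R2, R3 and R6 and DMSO R1, R3, R7 and R9. Whether separate cultures stood behind each library is not in the labels, so p-values measure the spread between these libraries, which may be technical.

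The proteasome is the protease that degrades ubiquitin-tagged proteins. Its barrel-shaped core is built from rings of alpha subunits (PSMA), which gate the entrance, and rings of beta subunits (PSMB), some of which carry the proteolytic sites. The regulatory cap binds ubiquitin chains, its ATPases (PSMC) unfold the substrate and thread it into the core, and its other subunits (PSMD) hold and deubiquitinate it. In cells exposed to interferon gamma the catalytic beta subunits are exchanged for PSMB8, PSMB9 and PSMB10, which favour peptides suited to antigen presentation, and such cells also raise the activator formed by PSME1 and PSME2.

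Libraries held between 23810841 and 32509792 counts. DMSO R7 and R9 stood apart: across the genes tested they correlated at 0.992 with each other and at 0.949 to 0.962 with the other 6 libraries, which correlated with each other at 0.983 or more. Results are therefore given from all 8 libraries and again without R7 and R9. Levels are CPM, counts scaled to the size of each library after a TMM correction for its composition. The epithelial label was only partly matched by marker genes. KRT8, an epithelial keratin, was at 1585, 1918, 2107 and 1348 CPM with progesterone and 2308, 2286, 2541 and 2789 CPM with DMSO. KRT19 was at 585, 422, 518 and 361 CPM with progesterone and 706, 565, 255 and 258 CPM with DMSO. KRT7 was at 5.70 to 35.3 CPM and CDH1 at 10.5 to 22.7 CPM over the 8 libraries. KRT18, at 0.948 to 6.92 CPM, and MUC1, at 0.878 to 3.33 CPM, were lower. The epithelial adhesion gene EPCAM was at 0.275, 0.595, 0.421 and 0.414 CPM with progesterone and 0.546, 0.624, 1.97 and 2.53 CPM with DMSO. The claudins CLDN3 and CLDN4 were below the filter on low counts. The 9 epithelial markers summed to 1740 to 2660 CPM with progesterone and 2824 to 3077 CPM with DMSO, and 7 stromal fibroblast markers to 12062 to 13255 CPM with progesterone and 13262 to 20545 CPM with DMSO. Both sums were lower in every progesterone library, but the fibroblast sums nearly touched. VIM alone made up 6562 to 7467 CPM of the fibroblast sums with progesterone and 5814 to 6816 CPM with DMSO. COL1A1, a fibroblast marker, was at 2046 and 1928 CPM in DMSO R1 and R3 and at 6554 and 5295 CPM in DMSO R7 and R9. DCN, another fibroblast marker, went the other way, at 962 and 770 CPM in DMSO R1 and R3 and at 268 and 281 CPM in R7 and R9. COL1A2, COL3A1, LUM and PDGFRA were also higher in R7 and R9 than in DMSO R1 and R3, and VIM overlapped. Of the epithelial markers, KRT8 and EPCAM were highest in DMSO R7 and R9, and KRT7 and KRT19 lowest. Without R7 and R9 the median log2 fold change of the fibroblast markers went from -0.51 to -0.21, and that of the epithelial markers from -0.51 to -0.42. Single markers differed over the 8 libraries: KRT7, KRT19 and CDH1 among 7 epithelial markers tested, and VIM and DCN among the 7 fibroblast markers, had positive log2 fold changes. The part of these markers in the results on proteasome genes was not tested. In bulk RNA, fewer cells of a type and less RNA per cell cannot be told apart.

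Of the 48 genes, 46 passed the filter on low counts and were tested. PSMA8, an alpha subunit known from the testis in mice, had a count of 0 in every library, which allows up to 0.0923 to 0.126 CPM per library (3 counts, counting error only). PSMB11, a beta subunit of the thymus, had 2, 1, 1 and 1 counts with progesterone and 2, 7, 5 and 2 counts with DMSO, and was not tested. The summed level of the family was 5338 to 6049 CPM with progesterone and 5621 to 6199 CPM with DMSO, ranges that overlap.

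The comparison asked what progesterone did to these transcripts. The differences were small, and core and cap genes mostly had opposite signs. Of 14 core genes tested, 12 had a positive and 2 a negative log2 fold change (progesterone over DMSO), with a median of 0.15. Of 20 cap genes, taken by the symbols PSMC and PSMD, 1 had a positive and 19 a negative log2 fold change, with a median of -0.15. This group includes PSMD5, PSMD9 and PSMD10, which are assembly chaperones. It leaves out SEM1, listed below among the proteasome partners, which had a positive estimate (0.20 ± 0.09 SE). Over all 13557 genes tested 49.0% were positive and 51.0% negative, with a median of -0.01. These signs are a description, since most single estimates were within the spread between libraries. With a replicate block by column number, given in the last section, 7 of 14 core estimates were positive and all 20 cap estimates negative.

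PSMD12, a scaffold subunit of the cap, fell with progesterone, and none of the other 45 genes passed the test across all genes (edgeR quasi-likelihood test, Benjamini-Hochberg adjusted p under 0.05). The count called higher was 0 of 46, against 1.69% of all genes tested, and the count called lower was 1 of 46 (2.17%), against 0.959% of all genes. At an unadjusted p under 0.05, 6 members were higher (13.0%, against 12.3% of all genes) and 10 were lower (21.7%, against 14.5%). Of the 10 that were lower, 8 were PSMC or PSMD genes, 1 was an activator and 1 a PSMG chaperone. The 8 were 40% of the cap genes tested, against 14.5% of all genes, and included the assembly chaperone PSMD10. DESeq2 called 9 members in a test that called 12.8% of all genes: PSMB3, PSMB8, PSMB9 and PSMG4 were higher and PSMD1, PSMD11, PSMD12, PSME3 and PSMG2 lower. limma voom called 0 members and 277 of the 13557 genes tested. Without DMSO R7 and R9, edgeR called 0 members and 1.18% of all genes, and 7 members had an unadjusted p under 0.05 (15.2%, against 15.9% of all genes). Without DMSO R1 it called 6 members, PSMB8 higher and PSMD1, PSMD11, PSMD12, PSME3 and PSMG2 lower, and 13.0% of all genes.

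**Figure D1:**
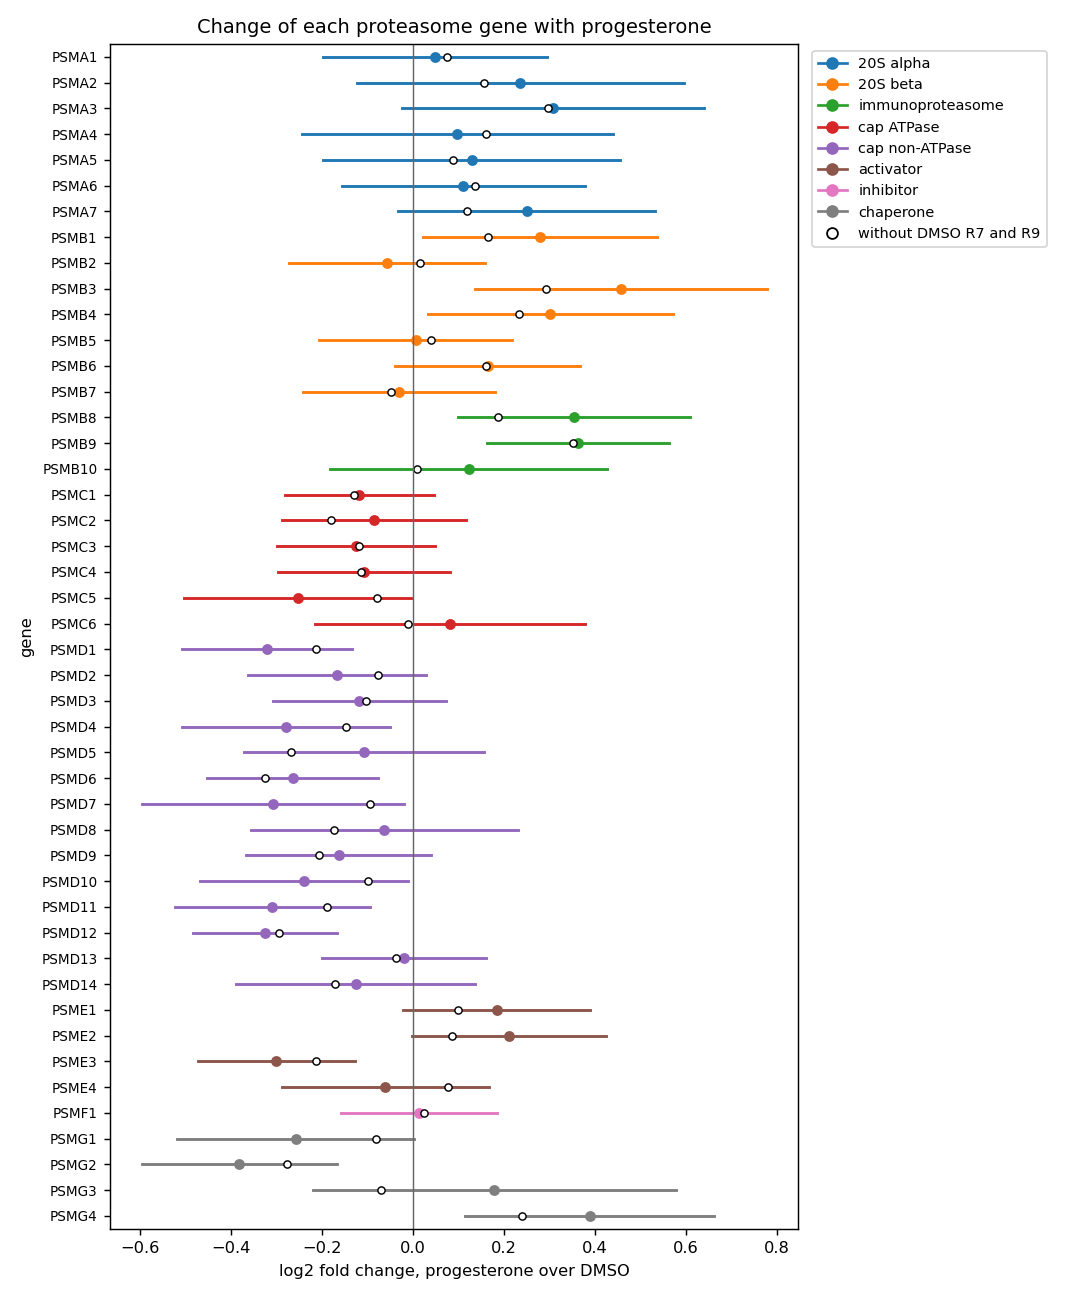
Log2 fold change of each tested proteasome gene, progesterone over DMSO, on the x axis, with genes down the page by role; filled points are estimates from all 8 libraries with 95% intervals (lines), and open points are estimates without DMSO R7 and R9. Cap genes lie left of 0 with the exception of PSMC6 (0.08), and 12 of 14 core genes lie right of it.

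The alpha subunits form the outer rings of the core. All 7 that were tested had positive estimates, and none passed or reached an unadjusted p under 0.05 (lowest edgeR adjusted p = 0.214; DESeq2 and voom called 0). PSMA3 (Entrez Gene 505176, chromosome 10) had the highest estimate, with 81.5, 101, 99.7 and 140.2 CPM with progesterone (R1, R2, R3 and R6) and 80.1, 93.3, 77.6 and 90.2 CPM with DMSO (R1, R3, R7 and R9). The groups overlapped, and progesterone R6 was the highest library. Its log2 fold change was 0.31 ± 0.15 (SE). PSMA1 (515503, chromosome 15) had the lowest estimate, with 59.3, 71.9, 67.0 and 83.9 CPM with progesterone and 61.6, 73.6, 67.8 and 69.9 CPM with DMSO. Its lowest and its highest library both belonged to the progesterone group (R1 and R6), and the log2 fold change was 0.05 ± 0.11 (SE). PSMA2, PSMA4, PSMA5, PSMA6 and PSMA7 had log2 fold changes between 0.10 and 0.25.

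Among the standard beta subunits 5 of 7 estimates were positive, and none passed by edgeR. At an unadjusted p under 0.05, 3 were higher (42.9%, against 12.3% of all genes tested). These were PSMB1, PSMB3 and PSMB4, which are structural subunits without a proteolytic site. DESeq2 called PSMB3, and voom called 0. PSMB3 (533874, chromosome 19) had the highest estimate of all 46 genes, with 134, 183, 168 and 198 CPM with progesterone and 134, 148, 114 and 103 CPM with DMSO. Progesterone R1 lay level with DMSO R1 and below DMSO R3, so the groups overlapped, and DMSO R7 and R9 were the lowest libraries. The log2 fold change was 0.46 ± 0.14 (SE, edgeR adjusted p = 0.0928) and 0.29 without R7 and R9 (adjusted p = 0.354). PSMB4 and PSMB1 had log2 fold changes of 0.30 ± 0.12 and 0.28 ± 0.12 (SE), and of 0.23 and 0.17 without R7 and R9. PSMB2 (516919, chromosome 3), also structural, had the lowest estimate, with 102, 112, 126 and 115 CPM with progesterone and 101, 126, 125 and 122 CPM with DMSO. The groups overlapped, and the log2 fold change of -0.06 ± 0.10 (SE) was 0.02 without R7 and R9.

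PSMB5, PSMB6 and PSMB7 carry the proteolytic sites of the standard core. PSMB5 (534640, chromosome 10), the chymotrypsin-like subunit, was at 175, 199, 222 and 205 CPM with progesterone and 181, 212, 193 and 211 CPM with DMSO. The progesterone libraries enclosed the DMSO libraries, and the log2 fold change was 0.01 with a 95% interval from -0.21 to 0.22. PSMB7 (511207, chromosome 11), the trypsin-like subunit, was at 116, 130.1, 143 and 145 CPM with progesterone and 127, 152, 133 and 134 CPM with DMSO. Its groups overlapped, with a log2 fold change of -0.03 and an interval from -0.24 to 0.18. PSMB6 (510069, chromosome 19), the caspase-like subunit, was at 136, 166, 161 and 165 CPM with progesterone and 132, 152, 132 and 146 CPM with DMSO. Progesterone R2, R3 and R6 lay above all DMSO libraries and R1 among them, with a log2 fold change of 0.16 ± 0.09 (SE, edgeR adjusted p = 0.274).

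All 3 immunoproteasome subunits had positive estimates, and none passed by edgeR. At an unadjusted p under 0.05, 2 were higher (66.7%, against 12.3% of all genes tested). DESeq2 called PSMB8 and PSMB9, and voom called 0. PSMB9 (510593, chromosome 23), which replaces PSMB6, was at 22.8, 23.4, 21.3 and 22.9 CPM with progesterone, against 17.2, 18.5, 17.7 and 16.9 CPM with DMSO. The groups did not overlap and each was narrow, averaging 22.6 ± 0.904 CPM with progesterone and 17.6 ± 0.710 CPM with DMSO (SD, n = 4 each). The log2 fold change was 0.36 ± 0.09 (SE, edgeR adjusted p = 0.0617), and without R7 and R9 it was 0.35 (adjusted p = 0.147). PSMB8 (282013, chromosome 23), which replaces PSMB5, was at 55.6, 54.1, 58.6 and 58.4 CPM with progesterone, against 50.6, 49.9, 36.4 and 40.5 CPM with DMSO. Its groups did not overlap either, and DMSO R7 and R9 were well below R1 and R3. The log2 fold change was 0.35 ± 0.11 (SE, edgeR adjusted p = 0.0977) and 0.19 without R7 and R9 (adjusted p = 0.328). PSMB10 (282328, chromosome 18), which replaces PSMB7, was at 16.5, 18.0, 17.9 and 23.0 CPM with progesterone and 17.9, 19.9, 14.8 and 16.7 CPM with DMSO. Progesterone R6 alone lay above the DMSO libraries, and the log2 fold change of 0.12 (95% interval -0.18 to 0.43) was 0.01 without R7 and R9.

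**Figure D2:**
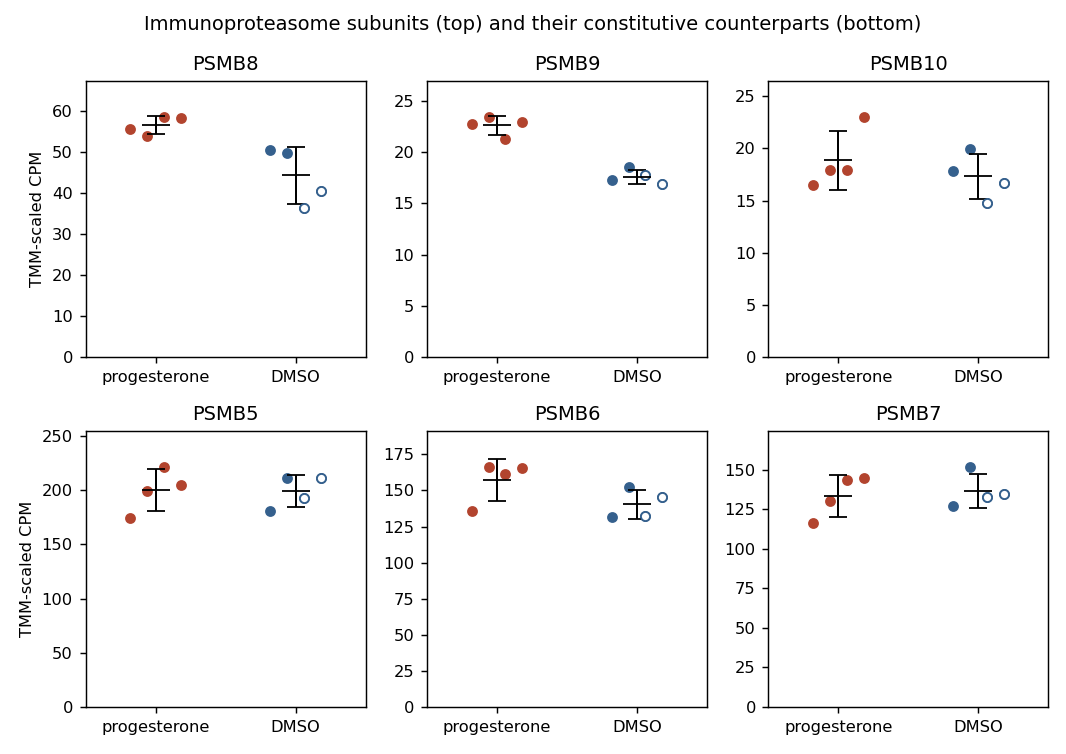
TMM-scaled CPM (y axis) of the immunoproteasome subunits and of the standard subunits they replace, 1 point per library, progesterone left of DMSO, with the mean and SD of each group; open points are DMSO R7 and R9. PSMB8 and PSMB9 do not overlap between the groups, while PSMB10, PSMB5, PSMB6 and PSMB7 do.

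The exchange of subunits was compared within each library as the log2 ratio of an immunoproteasome subunit to its standard counterpart, which does not depend on the scaling between libraries. The log2 ratio of PSMB8 to PSMB5 was -1.65, -1.88, -1.92 and -1.81 with progesterone and -1.84, -2.08, -2.40 and -2.38 with DMSO. DMSO R1 lay within the progesterone range and the other DMSO libraries below it. The difference of the means, progesterone minus DMSO, was 0.36, and it did not pass an exact two-sided permutation test (p = 0.0857, adjusted p = 0.129 over the 3 ratios, with 0.0286 the smallest p that 4 against 4 allows). For PSMB9 over PSMB6 the log2 ratio was -2.57, -2.82, -2.92 and -2.85 with progesterone and -2.93, -3.03, -2.89 and -3.10 with DMSO, a difference of 0.20 (exact permutation p = 0.0571, adjusted p = 0.129). For PSMB10 over PSMB7 the difference was 0.15 (exact permutation p = 0.20, adjusted p = 0.20). Without R7 and R9 the 3 differences were 0.15, 0.19 and 0.05.

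In the reference gene table PSMB8 and PSMB9 flank TAP1 on chromosome 23, and TAP2 lies close by on the other side of PSMB8. TAP1 and TAP2, named after their values were seen because of this position, form the transporter that carries peptides into the endoplasmic reticulum. TAP1 was at 75.3, 68.1, 67.6 and 67.1 CPM with progesterone and 65.7, 64.5, 71.5 and 64.0 CPM with DMSO, which overlapped, with a log2 fold change of 0.07 ± 0.08 (SE). TAP2 was at 44.0, 39.2, 44.3 and 41.6 CPM with progesterone, against 46.8, 44.8, 55.3 and 53.1 CPM with DMSO, lower in every progesterone library (log2 difference -0.24 ± 0.10 SE, edgeR adjusted p = 0.146). Leukocytes carry the immunoproteasome constitutively. PTPRC, a defining leukocyte gene, had a count of 0 in all 8 libraries, and 7 leukocyte markers summed to 9.59 to 14.4 CPM with progesterone and 6.32 to 13.6 CPM with DMSO. The highest of them was CD14, at 7.89 to 11.9 CPM with progesterone and 3.14 to 11.3 CPM with DMSO. CD68 was at 0.991 to 1.99 CPM with progesterone and 1.81 to 2.68 CPM with DMSO. The part of leukocytes in the PSMB8 and PSMB9 levels was not tested.

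The cap ATPases unfold substrates. Of the 6, 5 had a negative estimate, and none passed by edgeR, DESeq2 or voom. At an unadjusted p under 0.05, 1 was lower (16.7%, against 14.5% of all genes tested). PSMC5 (282015, chromosome 19) had the lowest estimate, with 146, 146, 164 and 132 CPM with progesterone and 146, 167, 183 and 204 CPM with DMSO. DMSO R1 lay among the progesterone libraries, and DMSO R7 and R9 were the highest. The log2 fold change was -0.25 ± 0.11 (SE, edgeR adjusted p = 0.184) and -0.08 without R7 and R9. PSMC6 (518637, chromosome 10) had the positive estimate, with 75.9, 88.4, 86.0 and 117 CPM with progesterone and 86.1, 100.4, 78.9 and 81.4 CPM with DMSO. Progesterone R6 alone exceeded the DMSO range, and the log2 fold change of 0.08 ± 0.13 (SE) was -0.01 without R7 and R9. PSMC1, PSMC2, PSMC3 and PSMC4 had log2 fold changes between -0.13 and -0.09.

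All 14 other cap genes had negative estimates, with a median log2 fold change of -0.20, and all 14 were negative without R7 and R9 as well, with a median of -0.17. PSMD12 (538204, chromosome 19), part of the lid of the cap, was at 90.4, 84.3, 82.4 and 82.6 CPM with progesterone, against 102, 109, 105 and 110.1 CPM with DMSO. The groups did not overlap, averaging 84.9 ± 3.75 CPM with progesterone and 106 ± 3.89 CPM with DMSO (SD, n = 4 each). With progesterone PSMD12 fell 1.25-fold (log2 -0.32 ± 0.07 SE, 95% interval -0.48 to -0.17, edgeR adjusted p = 0.0460). Its log2 fold change after removal of DMSO R7 and R9 was -0.30, with an adjusted p of 0.125. Leaving out single libraries kept it between -0.35 and -0.30, but the call held only without DMSO R1 (adjusted p = 0.0304), and without each of the other 7 the adjusted p was between 0.0514 and 0.151.

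PSMD1, PSMD2 and PSMD6 were picked after their values were seen, because their groups did not overlap. PSMD1 (511803, chromosome 2), a large scaffold of the base of the cap, was at 178, 174, 185 and 181 CPM with progesterone, against 204, 216, 226 and 251 CPM with DMSO (log2 difference -0.32 ± 0.08 SE, edgeR adjusted p = 0.0677, and -0.21 without R7 and R9). PSMD6 (538625, chromosome 22), a lid subunit, was at 70.1, 71.3, 78.2 and 69.0 CPM with progesterone, against 86.2, 96.2, 85.2 and 79.1 CPM with DMSO (log2 difference -0.26 ± 0.08 SE, edgeR adjusted p = 0.0948, and -0.32 without R7 and R9). In PSMD1 the DMSO libraries R7 and R9 were the highest, and in PSMD6 DMSO R1 and R3 were. PSMD2 (539784, chromosome 1), a base subunit, was at 465, 427, 464 and 419.9 CPM with progesterone, against 469.7, 475, 493 and 556 CPM with DMSO, groups that nearly touched (log2 difference -0.17 ± 0.09 SE, edgeR adjusted p = 0.249). With PSMD12, PSME3 and PSMG2 these made 6 of 46 members lower without overlap (13.0%, against 8.22% of all genes tested), and PSMB8 and PSMB9 made 2 that were higher without overlap (4.35%, against 7.95%).

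**Figure D3:**
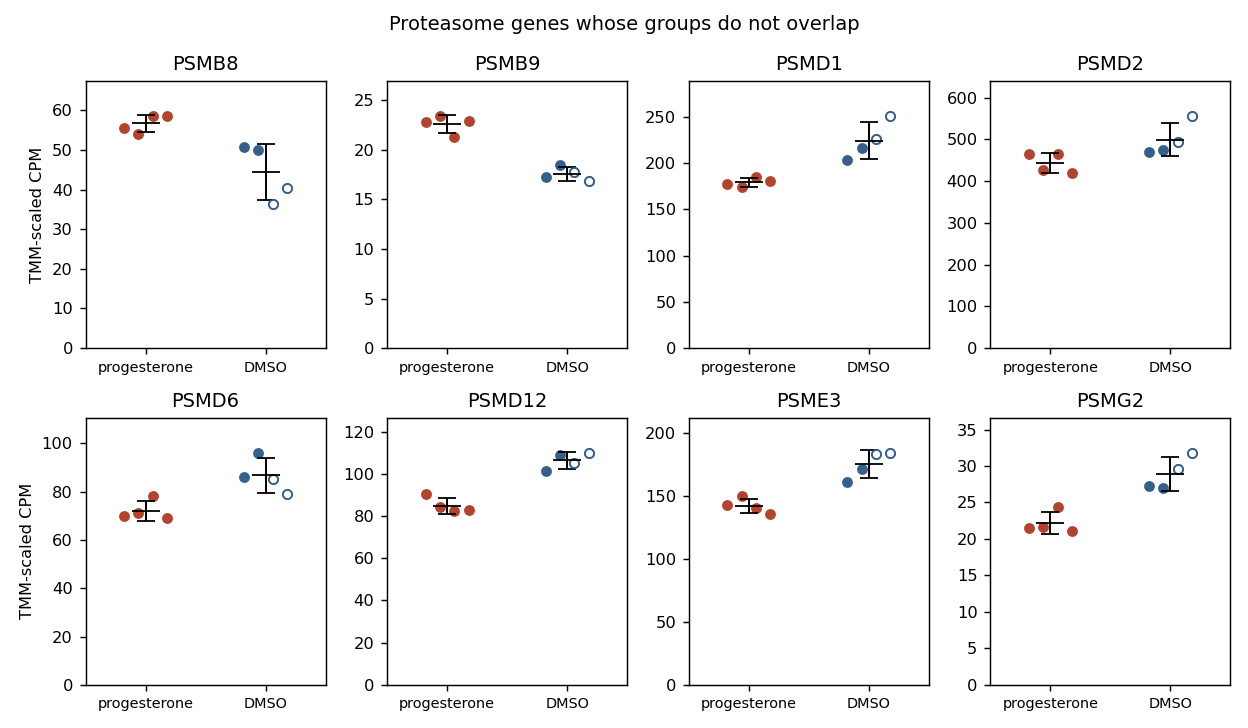
TMM-scaled CPM (y axis) of the 8 proteasome genes whose progesterone and DMSO libraries do not overlap, 1 point per library, progesterone left of DMSO, with the mean and SD of each group; open points are DMSO R7 and R9. PSMB8 and PSMB9 are higher with progesterone, and PSMD1, PSMD2, PSMD6, PSMD12, PSME3 and PSMG2 are lower.

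Of the remaining cap genes, 4 had an unadjusted p under 0.05: PSMD4, a ubiquitin receptor, PSMD7 and PSMD11 of the lid, and PSMD10, an assembly chaperone known as gankyrin. Their log2 fold changes were -0.28, -0.31, -0.31 and -0.24 over the 8 libraries and -0.15, -0.09, -0.19 and -0.10 without R7 and R9, which were the highest libraries for each of these genes. PSMD5, another assembly chaperone, was at -0.11 on the log2 scale over all libraries and at -0.27 without R7 and R9. DMSO R7 was its lowest library. PSMD13 (513525, chromosome 11), a lid subunit with the estimate closest to 0 among the PSMD genes, was at 75.6, 77.1, 87.5 and 83.1 CPM with progesterone and 81.7, 85.7, 75.6 and 84.8 CPM with DMSO. The groups overlapped, and the 95% interval of the log2 fold change ran from -0.20 to 0.16. PSMD14, the deubiquitinase of the lid, had a log2 fold change of -0.13 ± 0.12 (SE), and PSMD3, PSMD8 and PSMD9 of -0.12, -0.06 and -0.16.

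Activators open the core without the cap. Of the 4, none passed by edgeR or voom. PSME3, which DESeq2 called, was alone in being lower at an unadjusted p under 0.05 (25%, against 14.5% of all genes tested). PSME1 (Entrez Gene 510041) and PSME2 (509857) form the interferon-inducible ring, and the reference gene table places them on chromosome 10 with a single gene between them. PSME1 was at 121, 141, 138 and 143 CPM with progesterone and 134, 122, 106 and 116 CPM with DMSO, and PSME2 at 62.8, 62.9, 67.2 and 65.5 CPM with progesterone and 63.0, 60.0, 49.2 and 51.2 CPM with DMSO. In both genes DMSO R7 and R9 were the lowest libraries and DMSO R1 lay within the progesterone range. Their log2 fold changes were 0.18 ± 0.09 and 0.21 ± 0.10 (SE, edgeR adjusted p = 0.230 and 0.191), and 0.10 and 0.08 without R7 and R9. PSME3 (100336105, chromosome 19), the nuclear activator, was at 143, 149.8, 140.3 and 136 CPM with progesterone, against 161, 172, 184 and 185 CPM with DMSO. The groups did not overlap, with a log2 fold change of -0.30 ± 0.08 (SE, edgeR adjusted p = 0.0658) and -0.21 without R7 and R9 (adjusted p = 0.247).

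PSME4 (528142, chromosome 11), which encodes a large single-chain activator, was at 199, 193, 168 and 167 CPM with progesterone and 184, 164, 200.5 and 209.9 CPM with DMSO. The groups overlapped, and the log2 fold change was -0.06 ± 0.10 (SE), or 0.08 once R7 and R9 were left out. PSMF1 (617807, chromosome 13), known as an inhibitor of the core in vitro, was at 47.3, 50.9, 48.6 and 46.7 CPM with progesterone and 50.5, 45.6, 47.6 and 48.0 CPM with DMSO. Its groups overlapped, and the log2 fold change of 0.01 had a 95% interval from -0.16 to 0.18.

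The chaperones PSMG1 to PSMG4 assemble the alpha ring, PSMG1 in a pair with PSMG2 and PSMG3 in a pair with PSMG4. None passed by edgeR or voom. At an unadjusted p under 0.05, PSMG4 was higher (25%, against 12.3% of all genes tested) and PSMG2 lower (25%, against 14.5%). DESeq2 called both. PSMG2 (533993, chromosome 24) was at 21.5, 21.6, 24.4 and 21.1 CPM with progesterone, against 27.2, 27.0, 29.6 and 31.8 CPM with DMSO. The groups did not overlap, with a log2 fold change of -0.38 ± 0.10 (SE, edgeR adjusted p = 0.0633) and -0.28 without R7 and R9 (adjusted p = 0.230). Its partner PSMG1 (614817, chromosome 1) had a log2 fold change of -0.26 ± 0.12 (SE) and of -0.08 without R7 and R9. PSMG4 (789063, chromosome 23) was at 73.1, 74.8, 95.8 and 85.2 CPM with progesterone and 67.5, 73.2, 55.6 and 55.2 CPM with DMSO. Progesterone R1 and DMSO R3 met at the same level and DMSO R7 and R9 were lowest, with a log2 fold change of 0.39 ± 0.12 (SE, edgeR adjusted p = 0.0946) and 0.24 without R7 and R9. PSMG3 (510741, chromosome 25) had a log2 fold change of 0.18 ± 0.18 (SE), and of -0.07 without R7 and R9. A pseudogene of PSMG3 is listed in the same table, so its reads may be shared between the 2 rows.

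Core and cap genes varied differently across libraries. The deviation of a gene group in a library was taken per gene as log2 CPM minus that gene's mean over the 8 libraries, and then summarised by the median of the group. For the core it was -0.20, 0.15, 0.12 and 0.32 in progesterone R1, R2, R3 and R6 and -0.16, 0.08, -0.20 and -0.02 in DMSO R1, R3, R7 and R9. Within the progesterone group the core was lowest in R1 and highest in R6, and the groups overlapped. For the cap the deviations were -0.10, -0.10, 0.02 and -0.17 with progesterone and 0.00, 0.14, 0.09 and 0.10 with DMSO, and only progesterone R3 and DMSO R1 overlapped. The core minus the cap was -0.09, 0.25, 0.10 and 0.49 with progesterone and -0.16, -0.05, -0.29 and -0.12 with DMSO, and progesterone R1 alone fell within the DMSO range. Without progesterone R6 the median log2 fold change of the core was 0.07, with 9 of 14 estimates positive, and without progesterone R1 it was 0.24. The median of the cap stayed between -0.19 and -0.12 when any single library was left out.

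Cytosolic ribosomal proteins were added after the data were seen. Of 77 genes tested all had positive estimates, with a median log2 fold change of 0.39. By edgeR 1 was called higher, RPL31, against 1.69% of all genes tested. At an unadjusted p under 0.05, 73 were higher (94.8%, against 12.3% of all genes tested). Without DMSO R7 and R9, 45 had an unadjusted p under 0.05 (58.4%, against 15.9% of all genes). DESeq2 called 59, in a test that called 12.8% of all genes, and voom called 0. The deviations of the ribosomal genes were -0.06, 0.20, 0.23 and 0.45 with progesterone and -0.15, -0.06, -0.29 and -0.25 with DMSO. Like the core they were lowest in R1 and highest in R6 within the progesterone group, and the part of this shared variation in the core result was not tested.

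**Figure D4:**
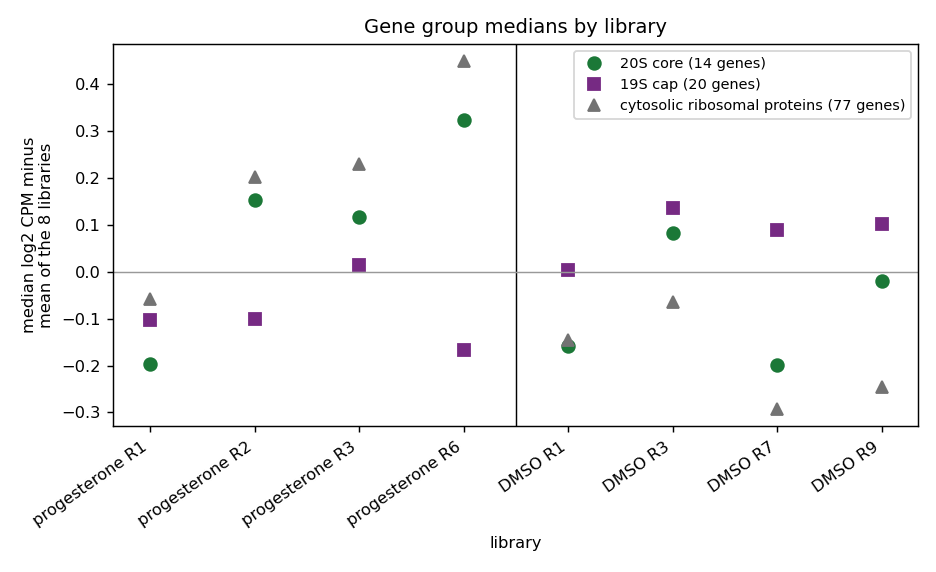
Median deviation of the core genes, the cap genes and the cytosolic ribosomal protein genes in each library (log2 CPM minus the mean of the 8 libraries), with progesterone libraries left of DMSO libraries. Core and ribosomal genes are lowest in R1 and highest in R6 among the progesterone libraries, while the cap genes lie at or below 0.02 in progesterone libraries and at or above 0.00 in DMSO libraries.

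**Figure D5:**
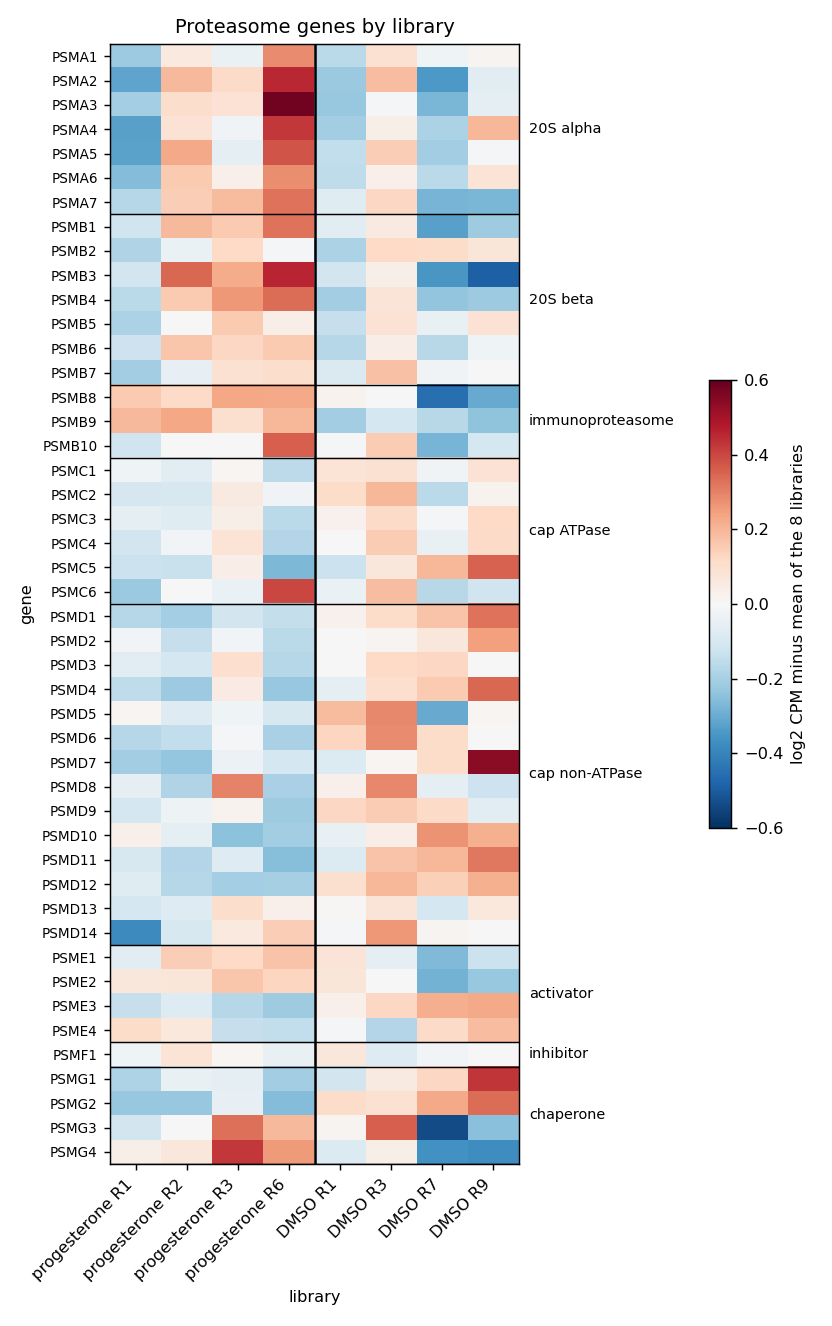
Deviation of every tested proteasome gene (rows, by role) in each library (columns, progesterone left of DMSO), as log2 CPM minus the mean of the 8 libraries, with colour giving its sign and size. Progesterone R6 is above the mean for the alpha subunits, and DMSO R7 and R9 are below it for PSMB3, PSMB8 and PSMG4.

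Other genes of the pathway were taken from 5 lists, and edgeR called 0 of their genes. Over all genes tested it called 1.69% higher and 0.959% lower. At an unadjusted p under 0.05, 12.3% of all genes tested were higher and 14.5% lower. DESeq2 called 0 in the first 3 lists, 1 in the list of delivery (UBXN1) and 2 in that of antigen processing (B2M and CANX), and voom called 0. Of 15 partners and assembly factors, with a median log2 fold change of -0.02, 6 had an unadjusted p under 0.05. SEM1, UCHL5, POMP and TXNL1 were higher (26.7%), and USP14 and UBE3A were lower (13.3%). USP14, the deubiquitinase that docks on the cap, was at 52.9, 55.1, 56.1 and 51.6 CPM with progesterone, against 57.2, 62.2, 78.6 and 66.0 CPM with DMSO, without overlap (log2 difference -0.29 ± 0.10 SE, edgeR adjusted p = 0.116, and -0.13 without R7 and R9). TXNL1, a thioredoxin-like protein that binds the cap, had a log2 fold change of 0.31 ± 0.12 (SE) and of 0.20 without R7 and R9. POMP, the maturation factor of the core, was picked after its values were seen and was at 68.2, 89.2, 90.3 and 105 CPM with progesterone and 69.0, 83.3, 58.8 and 59.6 CPM with DMSO. As for PSMB3, progesterone R6 was its highest library and DMSO R7 and R9 its lowest, and its log2 fold change was 0.38 ± 0.15 (SE) and 0.22 without R7 and R9.

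Of 16 tested genes that control transcription of the subunits, with a median of -0.05, 1 had an unadjusted p under 0.05 (6.25%). It was SEL1L of endoplasmic reticulum-associated degradation, which was lower (log2 difference -0.24 ± 0.09 SE, edgeR adjusted p = 0.130). Over all genes tested 14.5% were lower at that threshold. MAFG, a small MAF protein, had a log2 fold change of 0.18 ± 0.10 (SE). NFE2L1, which raises proteasome genes when proteasome activity is low, was picked after its values were seen and was at 726, 669.9, 776 and 662 CPM with progesterone and 682, 705, 559.6 and 572 CPM with DMSO. DMSO R7 and R9 were its lowest libraries, and its log2 fold change was 0.17 ± 0.11 (SE) and 0.04 without them. DDI1, a protease related to DDI2, was at 0 in every library.

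Among 14 genes of ubiquitin supply and activation the median was -0.06. At an unadjusted p under 0.05, 2 were higher (14.3%, against 12.3% of all genes tested) and 3 lower (21.4%, against 14.5%). These included RPS27A, which was higher, and UBA1, UBE2K and USP5, which were lower. UBE2K, a ubiquitin-conjugating enzyme, had a log2 fold change of -0.38 ± 0.13 and UBA1, the main activating enzyme, of -0.28 ± 0.11 (SE), and without R7 and R9 these were -0.11 and -0.07. Of 13 genes of delivery to the proteasome, with a median of 0.08, UBXN1 was higher (7.69%) and FAF2 and NPLOC4 were lower (15.4%) at that threshold. UBXN1, an adaptor of the unfoldase VCP, had a log2 fold change of 0.33 ± 0.10 (SE, edgeR adjusted p = 0.0866) and FAF2, another VCP cofactor, of -0.33 ± 0.12 (SE, edgeR adjusted p = 0.111).

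Among 20 genes of antigen processing and its regulators the median log2 fold change was -0.12. At an unadjusted p under 0.05, 2 were higher (10%, against 12.3% of all genes tested) and 3 lower (15%, against 14.5%). These included B2M and IFNGR2, which were higher, and TAP2 and CANX, which were lower. B2M, the light chain of MHC class I, was at 163, 204, 207 and 267 CPM with progesterone, against 125, 135, 151 and 153 CPM with DMSO. The groups did not overlap, with a log2 fold change of 0.58 ± 0.14 (SE, edgeR adjusted p = 0.0561) and 0.71 without R7 and R9 (adjusted p = 0.0809). CANX, the chaperone calnexin, was at 671, 613, 689.6 and 628 CPM with progesterone, against 766, 773, 950.2 and 984 CPM with DMSO. The groups did not overlap, and DMSO R7 and R9 were the highest libraries (log2 difference -0.42 ± 0.11 SE, edgeR adjusted p = 0.0661, and -0.23 without R7 and R9).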

How the data were processed

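Stranded mRNA libraries of 4 progesterone and 4 DMSO samples were made from total RNA, per the labels' protocols, with bcl2fastq, Salmon 1.4.0 and, as genome build, ARS-UCD1.2 listed per the submitters' processing notes. The authors deposited 1 table of estimated counts per gene, described as length-normalized; the sources used here do not state how the length correction was made. Columns were assigned to groups by their names, since the column numbers do not match the labels' replicate numbers. These deposited values were rounded to integers, then filtered with filterByExpr, scaled by TMM and tested with the quasi-likelihood test of edgeR 4.0.16 in R 4.3.3 (robust), with Benjamini-Hochberg adjustment over all 13557 genes tested and a threshold of 0.05. Progesterone over DMSO is the direction of every fold change. Ratios within libraries were tested by exact two-sided permutation.

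Alternatives were DESeq2 1.42.0, limma 3.58.1 with voom, other scalings, filters and prior counts, a term for DMSO R7 and R9, their removal, and leaving out each library. The fit was tested on simulated counts. Library totals of 23810841 to 32509792 set the counting precision, and floors at a count of 0 cover counting error only, while the 95% intervals of log2 fold changes come from the edgeR fit and cover the spread between libraries. The members, lists and tests were chosen with earlier results of these data known. Values in every library are given for called members, the catalytic and immunoproteasome subunits, the activators, PSMF1, and the highest and lowest estimate of each role. From each list the 2 genes with the smallest p are named, some with their log2 fold change alone; other genes were picked after their values were seen. All 48 members were found in the reference gene table by gene identifier; levels are not compared between genes, since transcript lengths were not used here. Some genes of the pathway lists are not reported here by name.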

Additional observations from a re-analysis of the deposited data

Results flagged for a closer look

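In 5 of the 102 groups of 4 libraries examined, 1 library lay far from the other 3 by Dixon's test, and chance alone gives about 1 in 20. PSMB6 was at 136 CPM in progesterone R1, against 161 to 166 CPM in the other progesterone libraries. PSMG2 was at 24.4 CPM in progesterone R3, against 21.1 to 21.6 CPM in the others. PSMB4 was at 217 CPM in DMSO R3, against 175 to 178 CPM in the other DMSO libraries. PSMD14, also in DMSO R3, was at 143 CPM, against 119 to 121 CPM. PSMC1 was at 152 CPM in DMSO R7, against 164 to 165 CPM. The causes were not tested.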

How the results depend on the processing

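The count of proteasome genes called higher (0) was 4 with DESeq2, 2 with a replicate block by column number and 0 to 1 when single libraries were left out. The count called lower (1) was 5 with DESeq2, 8 with the block, 0 to 5 without single libraries, and 0 with library size alone, with no filter, with voom, with a term for DMSO R7 and R9, without them, and at an adjusted p under 0.01. Over all genes (359) it was 1900 with DESeq2, 2531 with the block, 162 without R7 and R9, 27 at 0.01 and 42 to 1782 without single libraries. The block could use only the shared numbers 1 and 3. The deviations of same-numbered libraries correlated at 0.23 and 0.21, and those of differently numbered libraries at -0.07 and -0.01. The labels do not tie these numbers to a culture or batch. Whether same-numbered libraries shared more than a number was not tested.

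DESeq2 brought PSMB8 (log2 fold change 0.36), PSMB9 (0.37), PSME3 (-0.29), PSMG2 (-0.37) and PSMG4 (0.39) past the threshold, and also PSMB3, PSMD1 and PSMD11. With the block PSMB9 (0.30) and PSMG4 (0.25) were called higher, and PSMA5 (-0.19), PSMC6 (-0.20), PSMD1 (-0.21), PSMD5 (-0.24), PSMD6 (-0.30), PSMD12 (-0.28), PSMD14 (-0.29) and PSME3 (-0.23) lower. PSMA5 and PSMC6 had positive estimates without it (0.13 and 0.08). Leaving out single libraries gave 0.27 to 0.42 for PSMB8, -0.34 to -0.27 for PSME3 and -0.43 to -0.33 for PSMG2, past the threshold without DMSO R1. Signs turned for several genes, with estimates from all libraries of 0.18 (PSMG3), 0.13 (PSMA5) and 0.12 (PSMB10) among them. Without R7 and R9 this was so for PSME4 (0.077), PSMG3 (-0.071), PSMB2 (0.015) and PSMC6 (-0.011). With a term for R7 and R9 it was so for PSMB10 (-0.0052), PSME4 (0.063), PSMG3 (-0.084), PSMB2 (0.0023) and PSMC6 (-0.025). With the block it was so, among others, for PSMA5 (-0.19), PSMB10 (-0.13), PSME4 (0.075), PSMF1 (-0.0017), PSMG3 (-0.076), PSMA1 (-0.10), PSMB2 (0.0042) and PSMC6 (-0.20), and with no filter for PSMD13 (0.0063). Leaving out single libraries gave -0.0079 to 0.040 for PSMF1, -0.044 to 0.12 for PSMA1, -0.046 to 0.067 for PSMB5, -0.069 to 0.032 for PSMB7, -0.054 to 0.16 for PSMC6 and -0.059 to 0.019 for PSMD13. The cause was not tested. The median log2 fold change of the core genes was -0.0059 with the block, and that of the cap genes -0.098. With the block 7 of the 14 core estimates were positive, against 12 without it, and all 20 cap estimates were negative. Of the values under the alternatives, 481 were counted as keeping their direction and side of the threshold or moving by less than the spread. The core median with the block was counted among them, although its sign turned and the medians have no standard error here. A search for motifs in promoters was not run.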
